A study of Homo sapiens with 12 samples.

Results

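The genes described here are 8 secreted cytokines and ligands of the tumour necrosis factor (TNF) family, chemokines left out: CSF1, LIF, IL18, IL32, TNF, LTB, TNFSF9 and TNFSF10. They were looked up by symbol in a table of 56634 gene symbols, and all 8 were found. Of these, 5 had enough reads to be tested among 13084 genes (CSF1, LIF, IL18, IL32 and TNFSF9). The other 3, TNF, LTB and TNFSF10, were too low to judge in the same way and are given as raw counts. In HCT116, a human colorectal carcinoma line, TNF exposure was accompanied by more CSF1, LIF and IL32 RNA, with CSF1 moving furthest, and by a small drop of TNFSF9 that several alternative fits did not call.

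RNA sequencing was done on 12 libraries in 4 groups of 3 biological replicates. TNF plus Senexin B cells were given 1 µM Senexin B for 1 h and then 10 ng/mL TNF-alpha for 2 h. TNF cells were given 0.1% DMSO for 1 h and then the same TNF-alpha dose for 2 h. Senexin B cells had 1 µM of the compound for 3 h, and control cells had 0.1% DMSO for 3 h. Senexin B inhibits CDK8 and CDK19, the paired kinases of the Mediator complex that links transcription factors to RNA polymerase II, and all cells came from the same line. The design asks how the inhibitor alters the response to TNF.

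TNF binds the receptor TNFR1 on epithelial cells and activates NF-kB, a transcription factor that switches on inflammatory genes, among them cytokines that then act on neighbouring cells. CSF1 sustains macrophages, LIF signals through LIFR and gp130, and IL18 is made as a precursor that caspase-1 matures. TNF, LTB, TNFSF9 (4-1BB ligand) and TNFSF10 (TRAIL) are membrane proteins that engage receptors of the TNF receptor family, and several cytokine messages carry AU-rich elements by which proteins such as ZFP36 speed their decay.

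Total counts per library ran from 5835226 to 9281176. The TNF treatment was visible in 5 known response genes (NFKBIA, TNFAIP3, CXCL8, BIRC3 and ICAM1), whose summed level was 605 to 620 CPM in TNF plus Senexin B libraries, 788 to 865 CPM in TNF libraries, 30.8 to 33.6 CPM in Senexin B libraries and 36.5 to 38.1 CPM in control libraries. CPM is the depth-scaled read count, here with TMM factors. Of 6 epithelial markers 5 were tested and VIL1 stood at 0, while all 9 blood markers, all 3 endothelial markers and 5 of 6 fibroblast markers stayed under 10 counts in every library. The summed epithelial markers spanned 4478 to 4522 CPM with TNF plus Senexin B, 3872 to 4314 CPM with TNF, 4601 to 4686 CPM with Senexin B and 4166 to 4493 CPM in control libraries. Of the 5 tested, KRT8 and KRT18, keratins of simple epithelia, were called higher both in Senexin B cells against control cells (0.14 ± 0.04 each, adjusted p = 0.0102 and 0.0355, edgeR) and in TNF plus Senexin B cells against TNF cells (0.17 and 0.14, 0.000866 and 0.0364), and none of the 5 was called in TNF cells against control cells or in TNF plus Senexin B cells against Senexin B cells. The first KRT8 call was lost without Senexin B replicate 1 (0.0775) or control replicate 1 (0.0909), and the KRT18 calls were lost in 9 and 8 of 20 alternatives (largest adjusted p 0.36 and 0.259). The deviation of TNF replicate 1 from the mean of the other TNF libraries had a rank correlation of -0.58 with transcript GC content. The other TNF libraries had 0.41 and 0.37, each against a mean that includes replicate 1. Control replicate 1 had -0.19 and control replicate 3 had 0.26. The chi-square per degree of freedom between replicate counts was 2.45 and 2.72 for pairs with TNF replicate 1 and 1.24 for the remaining TNF pair. It was 2.62 and 2.76 for pairs with control replicate 1 and 1.35 for the remaining control pair. TNF replicate 1 and control replicate 1 are the libraries said below to have stood apart. Results that rest on these libraries are given with and without them.

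Promoter sequences are shown for 4 genes because their 5′ regions carry a match to a motif bound by NF-kB or to a TATA box. They are the 250 bases before the RefSeq start (GRCh38.p14), where 5 of the 8 genes had an entry. IL32 covers chr16:3065153-3065402 (plus strand), LTB chr6:31582426-31582675 (minus strand), TNF chr6:31575315-31575564 (plus strand) and TNFSF9 chr19:6530776-6531025 (plus strand). Capitals mark every match to the 10-base kB consensus in IL32 and LTB and to TATAAA in TNF and TNFSF9, both strands searched.
IL32: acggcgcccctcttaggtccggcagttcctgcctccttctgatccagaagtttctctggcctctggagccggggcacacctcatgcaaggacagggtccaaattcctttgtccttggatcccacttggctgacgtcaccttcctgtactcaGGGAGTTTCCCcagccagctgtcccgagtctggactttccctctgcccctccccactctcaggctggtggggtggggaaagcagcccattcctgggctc
LTB: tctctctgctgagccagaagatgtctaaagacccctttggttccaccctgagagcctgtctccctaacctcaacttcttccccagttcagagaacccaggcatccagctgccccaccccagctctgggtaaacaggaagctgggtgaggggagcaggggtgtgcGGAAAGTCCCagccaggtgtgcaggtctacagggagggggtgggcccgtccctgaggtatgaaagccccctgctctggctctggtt
TNF: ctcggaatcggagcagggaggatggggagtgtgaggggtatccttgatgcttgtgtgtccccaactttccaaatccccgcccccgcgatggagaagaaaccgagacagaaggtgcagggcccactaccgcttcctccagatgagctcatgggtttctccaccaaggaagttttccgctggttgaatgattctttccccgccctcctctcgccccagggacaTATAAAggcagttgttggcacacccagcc
TNFSF9: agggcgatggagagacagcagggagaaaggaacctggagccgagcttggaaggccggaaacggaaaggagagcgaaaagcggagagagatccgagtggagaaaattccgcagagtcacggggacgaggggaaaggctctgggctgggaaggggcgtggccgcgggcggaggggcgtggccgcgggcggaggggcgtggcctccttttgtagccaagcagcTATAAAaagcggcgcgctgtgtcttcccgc

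In IL32 the capitals hold 2 overlapping kB matches, 99 to 89 bases before the start (chr16:3065304-3065314). GENCODE 29 begins the IL32 gene at chr16:3065297, so the matches lie inside the gene as that annotation draws it. A second RefSeq start of IL32 had no match. The LTB match lay 86 to 77 bases before the start (chr6:31582502-31582511). TATAAA lay 29 to 24 bases before the start in TNF, 30 to 25 in TNFSF9 and 31 to 26 in TNFSF10. GENCODE 29 begins LTB at chr6:31582522 and TNFSF10 at chr3:172523507, both on the minus strand, so these matches also lie inside the annotated gene. The TNFSF9 match spans the start that GENCODE 29 gives, chr19:6530999. The AP-1 motif TGANTCA had no match in these 5 genes. Among 35116 promoters of the same length, 10.0% held a kB match, 6.6% an AP-1 match and 10.7% a TATAAA match, so each of these matches is a description of letters and not of binding.

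AU-rich elements were read from the 3′ untranslated regions of GENCODE 29 (GRCh38), since they mark messages open to rapid decay. The nonamer TTATTTATT occurred at 2 sites in LIF and at 5 overlapping sites in TNF, and was found in none of the other 6 genes. Both LIF sites (chr22:30240958-30240986 and chr22:30240535-30240563, minus strand) and the first TNF site (chr6:31577990-31578018, plus strand) are shown with the nonamer in capitals.
LIF site 1: ctccgggcccTTATTTATTatttaaacat
LIF site 2: cagattatttTTATTTATTcaatgtcata
TNF site 1: gcacttgtgaTTATTTATTatttatttat

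TNF held 9 ATTTA pentamers in 799 bases, or 11.3 per kilobase, more than 99.4% of tested genes. LIF held 7 in 3204 bases (2.19 per kilobase) and TNFSF9 held 4 in 862 bases (4.64 per kilobase), against a median of 1.68 per kilobase over tested genes. CSF1 had 4 and TNFSF10 had 2, whereas IL18, IL32 and LTB had none. The nonamer was present in 8.7% of 10923 tested genes.

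CSF1 (chr1:109910242-109930992, plus strand), the growth factor of the macrophage lineage, showed the widest separation. It had 19.2, 22.3 and 20.1 CPM in the TNF plus Senexin B libraries and 25.8, 24.7 and 25.3 CPM in the TNF libraries. It had 2.34, 3.47 and 2.14 CPM in the Senexin B libraries and 3.64, 2.97 and 3.54 CPM in the control libraries. Every library with TNF lay above every library without it, and the TNF libraries lay above those with TNF plus Senexin B. In TNF cells against control cells CSF1 rose 7.44-fold (log2 fold change 2.90 ± 0.17 SE, adjusted p = 2.42e-24, quasi-likelihood test of edgeR, Benjamini-Hochberg adjusted). In these bulk samples a change in the number of producing cells and a change in RNA per cell cannot be told apart. With the inhibitor present in both groups, TNF plus Senexin B against Senexin B, the rise was 7.79-fold (2.96 ± 0.19, adjusted p = 1.72e-23).

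LIF (chr22:30240447-30246851, minus strand), an IL-6 family cytokine, was the most abundant of the 8. It had 148.7, 159.1 and 148.7 CPM with TNF plus Senexin B and 122.8, 146.4 and 129.2 CPM with TNF. Without TNF it had 85.4, 89.9 and 88.9 CPM with Senexin B and 72.5, 80.1 and 81.3 CPM in control libraries. The 4 groups did not overlap, and the order was TNF plus Senexin B, TNF, Senexin B and control. Upward separation of TNF plus Senexin B from TNF libraries was seen in 11.3% of all genes. LIF rose 1.71-fold in TNF cells against control cells (0.77 ± 0.06, adjusted p = 1.7e-16, edgeR) and 1.73-fold in TNF plus Senexin B cells against Senexin B cells (0.79 ± 0.06, adjusted p = 7.55e-18).

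IL32 (chr16:3065297-3082192, plus strand), an inflammatory cytokine without a mouse counterpart, was read at low counts, though never under 17 in a library. It had 4.94, 4.12 and 5.07 CPM with TNF plus Senexin B and 6.59, 5.64 and 6.35 CPM with TNF. It had 2.23, 2.11 and 3.21 CPM with Senexin B and 3.23, 2.26 and 2.98 CPM in control libraries. All 6 libraries with TNF lay above all 6 without it. IL32 rose 2.18-fold in TNF cells against control cells (1.13 ± 0.22, adjusted p = 8.98e-05, edgeR) and 1.85-fold in TNF plus Senexin B cells against Senexin B cells (0.89 ± 0.23, adjusted p = 0.00557). Without Senexin B replicate 2 the second call was lost (0.78, adjusted p = 0.0529), and DESeq2 gave an adjusted p of 0.0825. The small nuclear RNA pseudogene RNU1-125P lies within IL32 on the same strand, and how reads over it were assigned is not given in the sources used here.

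IL18 (chr11:112143251-112164117, minus strand), which prompts interferon gamma production in lymphocytes, varied little. It had 45.2, 46.6 and 47.5 CPM with TNF plus Senexin B and 42.8, 38.4 and 36.5 CPM with TNF. It had 40.7, 39.7 and 34.3 CPM with Senexin B and 38.1, 36.6 and 32.04 CPM in control libraries. The TNF plus Senexin B libraries were the highest and did not overlap with any other group, while the other groups overlapped. Such upward separation was seen in 11.3% of all genes against TNF cells and in 11.5% against Senexin B cells. The share against control cells was not computed. TNF cells and control cells differed by 0.14 ± 0.08 on the log2 scale (95% interval -0.03 to 0.30, adjusted p = 0.334, edgeR), which did not pass the test. In TNF plus Senexin B cells IL18 rose 1.22-fold against Senexin B cells (0.29 ± 0.08, adjusted p = 0.0111). That call was lost without Senexin B replicate 3 (0.21, adjusted p = 0.2), without TNF plus Senexin B replicate 3 (0.27, adjusted p = 0.0649) and with DESeq2 (adjusted p = 0.1).

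TNFSF9 (chr19:6530999-6535928, plus strand), the ligand of the T cell costimulatory receptor 4-1BB, went the other way. It had 24.5, 25.3 and 28.7 CPM with TNF plus Senexin B and 30.3, 23.7 and 22.2 CPM with TNF. It had 35.7, 29.01 and 30.6 CPM with Senexin B and 34.9, 29.8 and 29.3 CPM in control libraries. TNF replicate 1 reached the range of the control libraries, so those groups overlapped, whereas all TNF plus Senexin B libraries lay below all Senexin B libraries. TNFSF9 fell by 0.32 on the log2 scale in TNF cells against control cells (SE 0.10, 0.801-fold, adjusted p = 0.0322, edgeR). The call was lost without TNF replicate 2 (adjusted p = 0.119), without TNF replicate 3 (0.211) or without control replicate 1 (0.167). It was also lost with offsets for GC content (0.169), with only the groups compared (0.066) and with DESeq2 (0.128). Leaving out both replicates that stood apart gave -0.36 with an adjusted p of 0.02. In TNF plus Senexin B cells against Senexin B cells the difference was -0.28 ± 0.10 (adjusted p = 0.0773), which did not pass. It did pass in 7 of 20 alternatives: without TNF replicate 1 (0.0282), without both replicates that stood apart (0.0186), without TNF plus Senexin B replicate 3 (0.0434), without Senexin B replicate 2 (0.0494), with only the groups compared (0.0272), with no filter on low counts (0.0463) and with the replicate number as a block (0.0422).

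**Figure D1:**
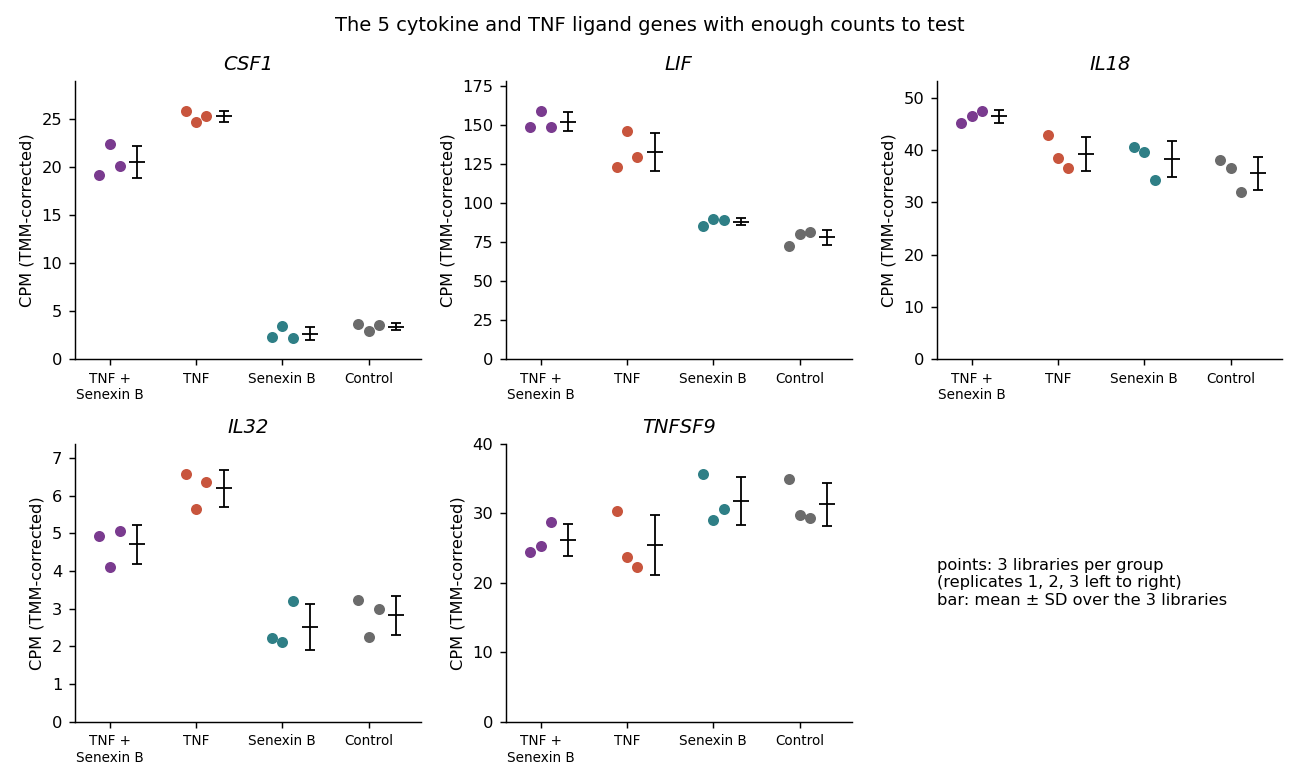
Level of CSF1, LIF, IL18, IL32 and TNFSF9 in CPM (vertical axis, from 0) in the 4 groups. Points are single libraries and bars are the mean ± SD of 3 replicates. CSF1 averages 20.5 CPM with TNF plus Senexin B and 25.3 CPM with TNF, against 2.65 CPM with Senexin B and 3.38 CPM in control cells.

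For TNF against control, 3 of the 5 tested genes rose (CSF1, LIF and IL32), 1 fell (TNFSF9) and IL18 did not pass. Over all 13084 genes 10.0% were called in that comparison, 5.81% higher and 4.20% lower. The count over all genes, 1309 (760 higher and 549 lower), was 937 (602 and 335) without both replicates that stood apart. It was 876 to 1348 with any 1 library left out and 1022 with GC offsets. The median log2 fold change of the 5 genes was 0.77, against -0.005 over all tested genes. The genes were chosen with earlier results of these data known, so setting them beside all genes is a description and not a test. Between TNF plus Senexin B and Senexin B cells, 4 of 5 rose (CSF1, LIF, IL18 and IL32), where 5.95% of all genes were called, 4.27% higher and 1.68% lower, and the median was 0.79. Among all genes, the libraries did not overlap in 12.6% (higher) and 11.8% (lower) for TNF against control, and in 11.5% (higher) and 10.4% (lower) between TNF plus Senexin B and Senexin B cells.

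**Figure D2:**
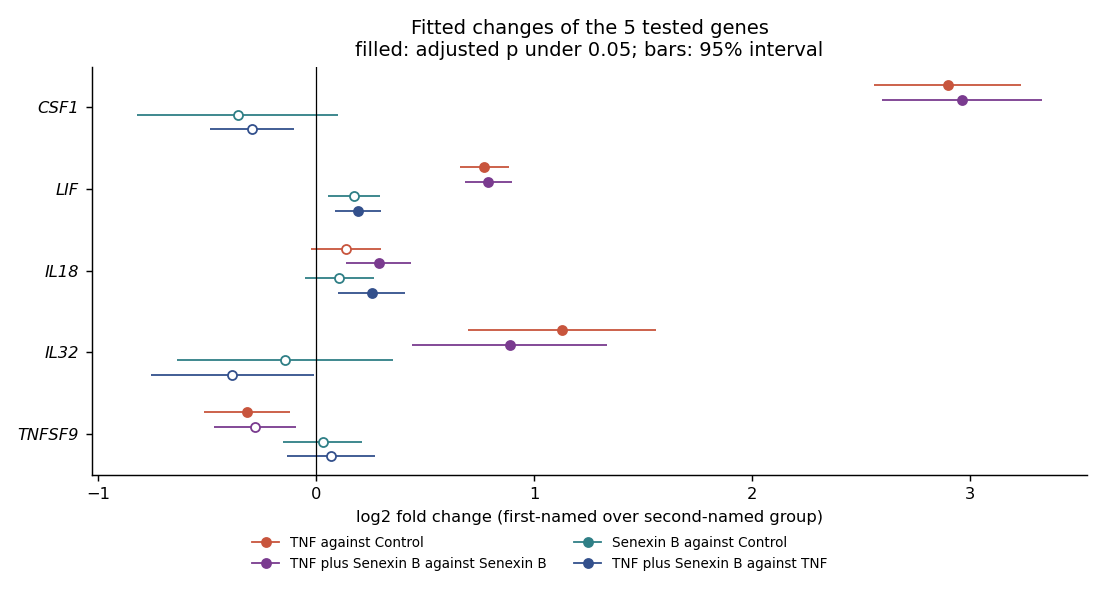
Fitted log2 fold changes of the 5 tested genes (horizontal axis) in the 4 comparisons. Bars are 95% intervals and filled points have an adjusted p under 0.05. CSF1 stands at 2.90 for TNF against control and at -0.30, unfilled, for TNF plus Senexin B against TNF.

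Senexin B without TNF changed none of the 5 tested genes past the threshold, and DESeq2 also called none, where 3.04% of all genes were called, 1.53% higher and 1.51% lower. The count over all genes, 398, was 236 to 261 without any 1 of the Senexin B replicates and 589 without TNF replicate 1. It was 511 with only the groups compared and 573 with GC offsets. An unadjusted p under 0.05 was seen for 1 gene, LIF. The LIF libraries did not overlap between Senexin B and control cells (0.17 ± 0.06, 95% interval 0.06 to 0.29, adjusted p = 0.11, edgeR), and such separation upward was seen in 9.96% of all genes. Without TNF replicate 1 in the fit LIF passed (0.17, adjusted p = 0.0428). CSF1 was -0.36 (interval -0.82 to 0.10), IL32 -0.14 (-0.64 to 0.35), IL18 0.10 (-0.05 to 0.26) and TNFSF9 0.03 (-0.15 to 0.21) on the log2 scale, so these intervals leave room for changes of either sign.

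With TNF present in both groups, 2 of the 5 were higher with the inhibitor, TNF plus Senexin B against TNF, and none was lower, where 5.45% of all genes were called, 2.90% higher and 2.55% lower. LIF rose 1.14-fold (0.19 ± 0.05, adjusted p = 0.021, edgeR) and IL18 rose 1.19-fold (0.25 ± 0.08, adjusted p = 0.0426). Neither gene's libraries overlapped between these groups, which held for 11.3% of all genes in the higher direction. KRT8 (0.17) and KRT18 (0.14) were higher in the same comparison, and their part in these results was not tested. The count over all genes, 713, was 451 to 468 without any 1 of the TNF plus Senexin B replicates. It was 463 without TNF replicate 1 and 815 without TNF replicate 2. Both calls were narrow. LIF did not pass without TNF plus Senexin B replicate 2 (0.16, adjusted p = 0.153), without TNF replicate 1 (0.14, 0.125), without TNF replicate 3 (0.17, 0.104), without both replicates that stood apart (0.14, 0.0711), with GC offsets (0.13, 0.0837) or with DESeq2 (0.059). IL18 did not pass without any 1 of the 3 TNF plus Senexin B replicates, without TNF replicate 2 or 3 or without Senexin B replicate 2 (adjusted p from 0.0514 to 0.191). Nor did it pass with only the groups compared (0.0576) or with DESeq2 (0.144).

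CSF1 and IL32 lay on the other side in that comparison. CSF1 averaged 20.5 ± 1.64 CPM with TNF plus Senexin B and 25.3 ± 0.592 CPM with TNF (SD, n = 3 each), a log2 difference of -0.30 ± 0.10 that did not pass (adjusted p = 0.0637, edgeR). With offsets for GC content it did pass (-0.35, adjusted p = 0.015). IL32 averaged 4.71 ± 0.519 CPM with TNF plus Senexin B and 6.19 ± 0.493 CPM with TNF, a difference of -0.39 ± 0.19 (adjusted p = 0.253). Neither gene's libraries overlapped between these groups, which held for 11.3% of all genes in the lower direction. The 5 treatment check genes were all called lower in this comparison, where 2.55% of all genes were. Their log2 changes were -0.79 for CXCL8, -0.60 for BIRC3, -0.55 for ICAM1, -0.265 for TNFAIP3 and -0.21 for NFKBIA (largest adjusted p 0.00945, edgeR). The TNFAIP3 call was lost in 3 of 20 alternatives (largest adjusted p 0.115). The difference between the TNF effects with and without the inhibitor passed for none of these 5 genes.

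The interaction asks whether the TNF effect differed with and without the inhibitor. None of the 5 genes passed by edgeR or DESeq2, none had an unadjusted p under 0.05, and 0.0459% of all genes (6, or 2 to 9 with any 1 library left out) were called, 0.0229% higher and 0.0229% lower. The difference of effects was 0.07 ± 0.26 for CSF1 (interval -0.43 to 0.57), 0.02 ± 0.08 for LIF (-0.14 to 0.18), 0.15 ± 0.11 for IL18 (-0.07 to 0.37), -0.24 ± 0.32 for IL32 (-0.86 to 0.38) and 0.04 ± 0.14 for TNFSF9 (-0.23 to 0.31). The interval of LIF is the narrowest of the 5 and that of IL32, with the fewest reads, the widest. Comparisons that share a group share its 3 libraries and are not independent.

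The 3 genes too low to judge were counted in single reads. TNF, the gene of the added cytokine, had 6, 2 and 2 counts with TNF plus Senexin B and 2, 1 and 7 counts with TNF, and 0 in all 6 libraries without TNF. Against an assumed floor of 3 counts for a group at 0, the TNF ratio was 3.67 for TNF cells against control cells. It was 3.32 for TNF plus Senexin B cells against Senexin B cells. These ratios take the observed counts as exact and are not lower limits. Single libraries held 7 of the counts in TNF cells and 6 of those with TNF plus Senexin B. Between TNF plus Senexin B and TNF the ratio per library size was 0.868, with an exact 95% interval of 0.324 to 2.32. Without TNF replicate 3 the TNF group keeps 3 counts, which is the floor, and no fold against control cells, at 0, can be given. This depth cannot show whether the inhibitor altered TNF message.

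LTB (chr6:31580525-31582522, minus strand), the lymphotoxin beta subunit, lies beside TNF (chr6:31575567-31578336, plus strand). It had 3, 2 and 2 counts with TNF plus Senexin B and 1, 8 and 8 counts with TNF, against 0, 1 and 0 with Senexin B and 0, 0 and 1 in control libraries. Over the groups the ratio was 18.7 for TNF against control (exact interval 2.93 to 781) and 6.98 between TNF plus Senexin B and Senexin B cells (0.897 to 315). It was 0.357 for TNF plus Senexin B against TNF (0.125 to 0.906), with the libraries overlapping and TNF replicate 1, at 1 count, below the others of its group. Tested with no filter on low counts, TNF and LTB passed for TNF against control (adjusted p = 0.0222 and 0.00622, edgeR). LTB did not pass between TNF plus Senexin B and TNF cells (adjusted p = 0.455), and TNF passed between TNF plus Senexin B and Senexin B cells (0.0447) whereas LTB did not (0.567). Counting intervals cover counting error only.

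TNFSF10 (chr3:172505508-172523507, minus strand), the death ligand TRAIL, had 1, 0 and 1 counts with TNF plus Senexin B, 0 in all TNF libraries, 1, 0 and 0 with Senexin B and 0 in all control libraries. No fold can be given at 3 counts or fewer per group.

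**Figure D3:**
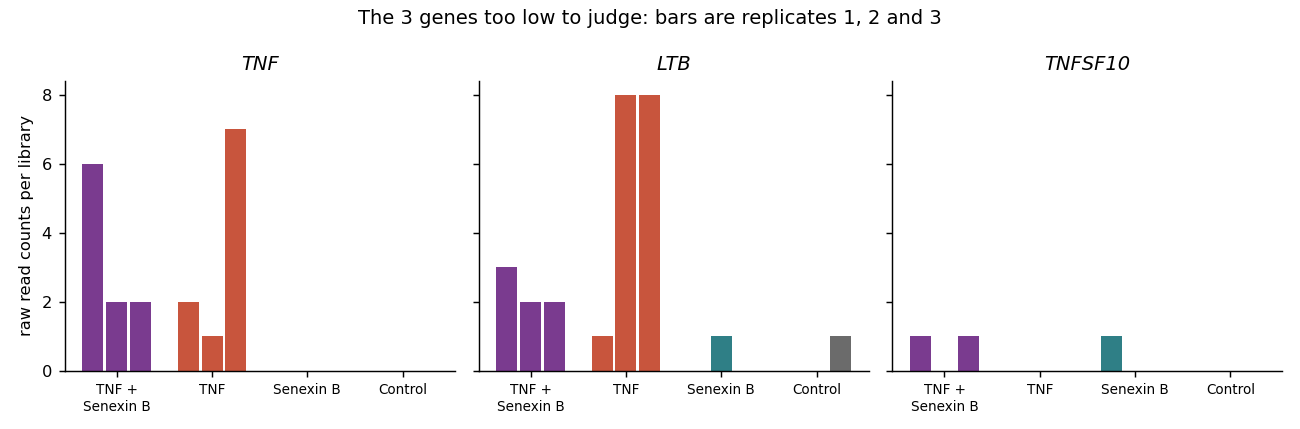
Raw read counts of TNF, LTB and TNFSF10 (vertical axis) in each of the 3 replicates of the 4 groups. TNF is at 0 in every library without TNF treatment, and LTB reaches 8 counts in TNF replicates 2 and 3.

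Per length of merged exons (RPKM, reads per kilobase of exon, scaled for depth), the order of levels in control cells was LIF at 19.7, TNFSF9 at 18.8, IL18 at 13.5, IL32 at 0.880, CSF1 at 0.624 and LTB at 0.0240. In TNF cells it was LIF at 33.5, TNFSF9 at 15.3, IL18 at 14.9, CSF1 at 4.66, IL32 at 1.93, LTB at 0.463 and TNF at 0.263 RPKM. In control libraries LIF (18.3 to 20.5) and TNFSF9 (17.6 to 21.0) overlapped, and in TNF libraries TNFSF9 (13.4 to 18.2) and IL18 (13.9 to 16.3) overlapped. LTB and TNF overlapped in TNF libraries. CSF1 lay below IL32 in every control library and above it in every TNF library.

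Receptors were mostly expressed. Of 14 receptor genes of these cytokines, 10 were tested. TNFRSF9 passed the filter only through the groups with TNF and is left out of the counts that follow. Of the other 9, in TNF cells against control cells 2 were higher and 1 lower (5.81% and 4.20% of all genes), and in Senexin B cells against control cells none was higher and 1 lower (1.53% and 1.51%). In TNF plus Senexin B cells against TNF cells 1 was higher and 1 lower (2.90% and 2.55%), and in TNF plus Senexin B cells against Senexin B cells 3 were higher and 1 lower (4.27% and 1.68%). CSF1R and IL18RAP had 2 summed counts or fewer in any group, TNFRSF1B 6 or fewer and TNFRSF11B 3 or fewer, so the receptor for CSF1 was too low to judge.

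IL6ST, the gp130 subunit through which LIF signals, averaged 87.2 ± 5.22 CPM with TNF plus Senexin B, 114.5 ± 10.0 CPM with TNF, 53.9 ± 3.22 CPM with Senexin B and 63.1 ± 4.82 CPM in control cells (SD, n = 3 each). It rose with TNF against control (0.85 ± 0.06, adjusted p = 1.02e-16, edgeR) and in TNF plus Senexin B cells against Senexin B cells (0.69 ± 0.07, 8.44e-13), and fell in TNF plus Senexin B cells against TNF cells (-0.38 ± 0.06, 6.08e-06). LIFR, the ligand-binding partner, was lower in Senexin B cells than in control cells at 19.3 and 23.9 CPM (-0.31 ± 0.09, adjusted p = 0.047). That LIFR call was lost in 13 of 20 alternatives, including the omission of any 1 of the 3 Senexin B replicates or the 3 control replicates (adjusted p from 0.0796 to 0.196), and of any TNF plus Senexin B replicate or TNF replicate 3 (0.051 to 0.0541). IL18R1 did not pass in any of the 4 comparisons, at 1.73 to 3.29 mean CPM.

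TNFRSF10B, a receptor for TRAIL, rose in TNF cells against control cells (312.8 and 179.9 CPM, 0.80 ± 0.04, adjusted p = 1.38e-23, edgeR) and in TNF plus Senexin B cells against Senexin B cells (318.6 and 185.3 CPM, 0.78 ± 0.04, 1.72e-23). TNFRSF10A, the other death receptor for TRAIL, rose in TNF plus Senexin B cells against Senexin B cells (89.2 and 76.9 CPM, 0.21, adjusted p = 0.00772), a call lost without Senexin B replicate 3 (0.0527). TNFRSF10C and TNFRSF10D, decoy receptors of the same family, did not pass in any of the 4. These 4 genes are related in sequence, and how reads that map to several places were counted is not given in the sources used here.

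TNFRSF9, the 4-1BB receptor that TNFSF9 binds, had 246 summed counts with TNF plus Senexin B, 314 with TNF, 0 with Senexin B and 5 in control cells. It entered the test only through the TNF groups. Its ratio was 69.1 for TNF against control (exact interval 29.3 to 214). For TNF plus Senexin B cells against Senexin B cells the ratio was 81.8, taken against an assumed floor of 3 counts. TNF plus Senexin B stood at 0.680 of TNF (0.573 to 0.806, edgeR adjusted p = 0.00418).

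TNFRSF1A, the receptor TNFR1, fell in TNF cells against control cells (74.2 and 84.3 CPM, -0.18 ± 0.06, adjusted p = 0.0354, edgeR) and in TNF plus Senexin B cells against Senexin B cells (84.0 and 95.2 CPM, -0.18, 0.0401). The first call was lost in 8 of 20 alternatives, among them the omission of TNF replicate 1 or 3 or of control replicate 2 or 3 (largest adjusted p 0.281), and the second in 7, among them the omission of any TNF plus Senexin B replicate or of Senexin B replicate 1 or 2 (largest 0.274). LTBR, the lymphotoxin beta receptor, was higher in TNF plus Senexin B than in TNF cells (116.5 and 102.3 CPM, 0.18 ± 0.05, adjusted p = 0.0279). That call was lost in 8 of 20 alternatives, among them the omission of any TNF plus Senexin B replicate or of TNF replicate 1 (adjusted p from 0.0713 to 0.129), and GC offsets (0.172).

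Of 10 tested genes for cytokine processing and mRNA decay, 3 were higher in TNF cells against control cells, 1 in Senexin B cells against control cells, 1 in TNF plus Senexin B cells against TNF cells and 4 in TNF plus Senexin B cells against Senexin B cells, with none lower. Over all genes 5.81%, 1.53%, 2.90% and 4.27% were called higher in these 4 comparisons, in the same order. CASP1, an enzyme that matures IL18, was at 0 in every library. CASP4, another caspase of the same list, averaged 14.36 CPM in control cells and 17.55 CPM in TNF cells. It did not pass in any of the 4 comparisons. ZFP36, which binds AU-rich elements such as those printed for LIF and TNF, rose in TNF cells against control cells (46.2 and 22.1 CPM, 1.08 ± 0.09, adjusted p = 3.67e-15, edgeR) and in TNF plus Senexin B cells against Senexin B cells (49.8 and 18.5 CPM, 1.43 ± 0.09, 2.23e-20). ZC3H12A, an endonuclease of cytokine messages, rose by 1.13 ± 0.16 and 1.41 ± 0.17 on the log2 scale in the same comparisons, and ZFP36L1 by 0.62 ± 0.04 and 0.57 ± 0.04. ZFP36L1 was also the gene called with Senexin B against control (0.24 ± 0.04, adjusted p = 0.000229) and with TNF plus Senexin B against TNF (0.19 ± 0.04, 0.00207), calls that were lost with offsets for GC content (0.0549 and 0.439). ADAM17, the protease that sheds TNF, rose in TNF plus Senexin B cells against Senexin B cells (0.30 ± 0.06, adjusted p = 0.000564).

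**Figure D4:**
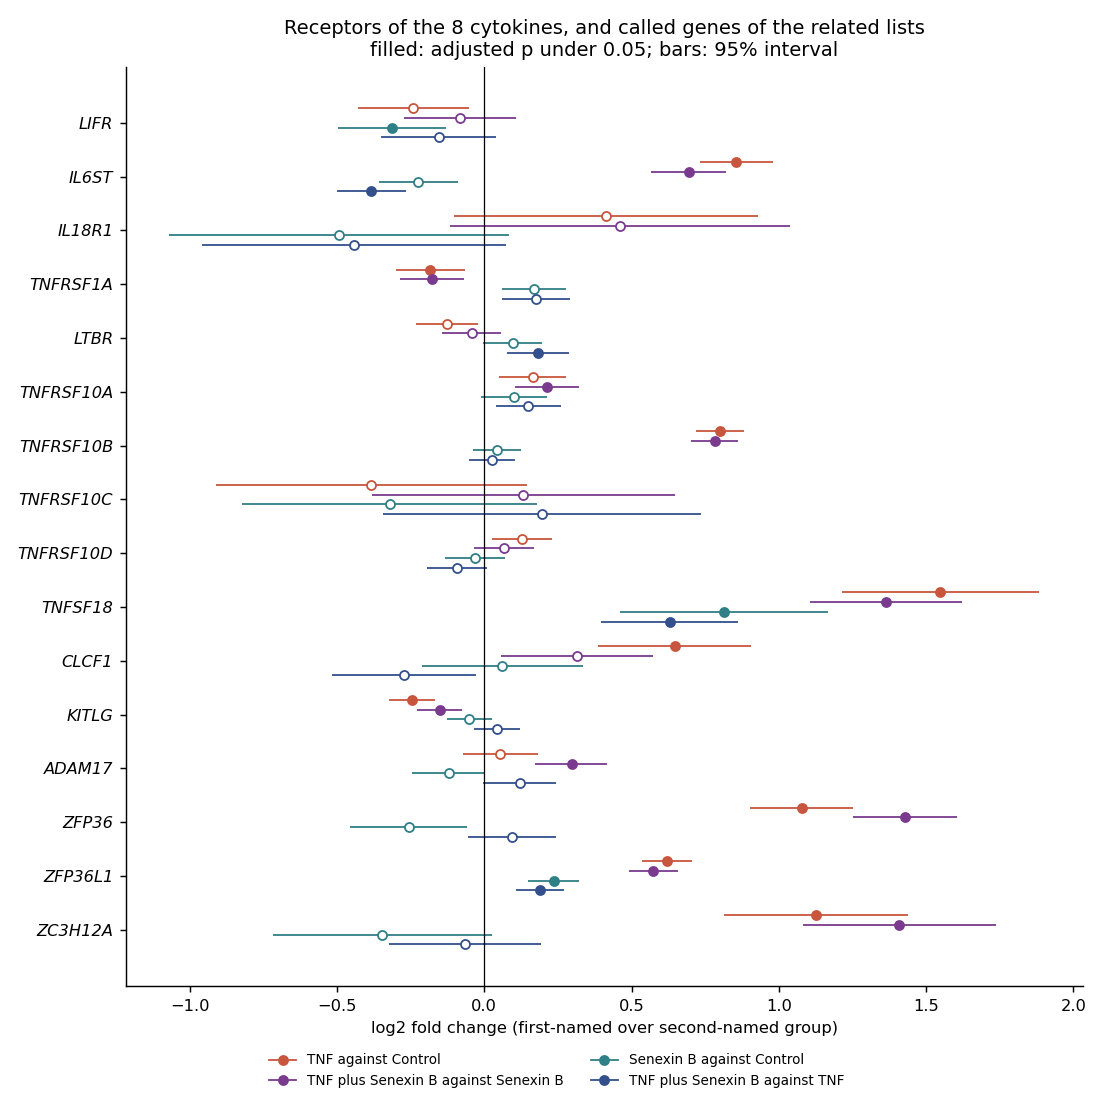
Fitted log2 fold changes (horizontal axis) of the tested receptors other than TNFRSF9 and of called genes of the related lists in the 4 comparisons. Bars are 95% intervals and filled points have an adjusted p under 0.05. TNFRSF10B stands at 0.80 and 0.78 in both comparisons with TNF, and IL6ST at -0.38 for TNF plus Senexin B against TNF.

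Of 14 other TNF family ligands, 5 were at 0 in every library and 4 were tested. TNFSF18, the ligand of the receptor GITR, was higher in all 4 comparisons, and the other 3 tested (TNFSF4, TNFSF12 and EDA) were called in none. Over all genes 5.81% were called higher in TNF cells against control cells and 1.53% in Senexin B cells against control cells. The share was 2.90% in TNF plus Senexin B cells against TNF cells and 4.27% in TNF plus Senexin B cells against Senexin B cells. It averaged 19.9 ± 0.796 CPM with TNF plus Senexin B, 13.1 CPM with TNF (libraries from 11.2 to 15.8), 7.71 ± 0.291 CPM with Senexin B and 4.40 ± 0.905 CPM in control cells (SD, n = 3 each). The log2 changes were 1.55 ± 0.17 for TNF against control, 0.81 ± 0.18 for Senexin B against control, 0.63 ± 0.12 between TNF plus Senexin B and TNF cells and 1.36 ± 0.13 between TNF plus Senexin B and Senexin B cells, with a largest adjusted p of 0.00223 (edgeR). Without control replicate 3 the Senexin B call was lost (0.67, adjusted p = 0.0516).

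Of 48 other interleukins and colony stimulating factors, 24 were at 0 in every library and 5 were tested. In TNF cells against control cells 1 was higher and 1 lower (5.81% and 4.20% of all genes). In TNF plus Senexin B cells against Senexin B cells 1 was lower and none higher (1.68% and 4.27%), and none was called in the other comparisons. CLCF1, an IL-6 family cytokine, rose in TNF cells against control cells (14.4 and 9.25 CPM, 0.65 ± 0.13, adjusted p = 0.000317, edgeR). It did not pass in TNF plus Senexin B cells against Senexin B cells (0.31 ± 0.13, adjusted p = 0.198). KITLG, the stem cell factor, fell in TNF cells against control cells (410.9 and 486.8 CPM, -0.25 ± 0.04, adjusted p = 4.11e-06) and in TNF plus Senexin B cells against Senexin B cells (-0.15 ± 0.04, 0.00779), the second call being lost without Senexin B replicate 3 (0.141).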

How the data were processed

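The deposited table held raw counts, whole numbers per gene symbol, for 12 HCT116 libraries; the authors applied no normalization. Libraries were made with a TruSeq RNA kit that does not mark strand, per the labels' protocols. The submitters' processing notes name GRCh38 (hg38), STAR 2.4, featureCounts, Subread 1.4.6 and SAMtools 1.2. The annotation release, strand setting and multi-mapping rule are not given in the sources used here. Columns were matched to samples through the labels.

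TMM-scaled CPM and RPKM (GENCODE 29 exons) were computed from the deposited counts. edgeR 4.0.16 (R 4.3.3) fitted all 12 libraries with 1 coefficient per group after filterByExpr, with robust quasi-likelihood tests, at an adjusted p under 0.05. The biological coefficient of variation was 3.62%. The pipeline was tested on simulated data. DESeq2 1.42.0, other filters and scaling, omitted libraries and a replicate block were tried. GC offsets were added after the data were seen. The genes and lists were chosen with earlier results of these data known. Named genes were the 8 members, called genes of each list up to 6 by adjusted p, all receptors, and the 3 genes at 1 CPM or more nearest to each called member, clone-based names and small RNAs left out, by root mean square difference of centred group means of log2(CPM + 1). One of these nearest genes is not reported here.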

Additional observations from a re-analysis of the deposited data

How the results depend on the processing

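Of 20 alternatives, the rises of CSF1 and LIF in both TNF comparisons and of IL32 in TNF cells against control cells passed in every one. Each of the other member calls was lost in at least 2 of them. Senexin B against control called 1 member (LIF) with only the groups compared in the fit, and 0 to 1 when single libraries were left out. TNF plus Senexin B against TNF called 0 members with DESeq2, 1 (LIF) with only the groups compared, 1 (IL18) without both libraries that stood apart, and 0 to 2 when single libraries were left out. TNF plus Senexin B against Senexin B called 2 (CSF1 and LIF) with DESeq2. Over all genes DESeq2 called fewer, 801 against 1309 for TNF against control, 259 against 398 for Senexin B against control, 438 against 713 between TNF plus Senexin B and TNF cells and 485 against 779 between TNF plus Senexin B and Senexin B cells. The causes were not tested.

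Differences near 0 changed sign. The LIF interaction was -0.024 with GC offsets. With single libraries left out, the interaction ran from -0.073 to 0.292 for CSF1, from -0.030 to 0.098 for LIF and from -0.050 to 0.160 for TNFSF9, and TNFSF9 ran from -0.065 to 0.107 for Senexin B against control and from -0.021 to 0.189 for TNF plus Senexin B against TNF.

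Deviations of same-numbered libraries correlated at -0.021 to 0.080, and those of differently numbered libraries at -0.129 to 0.083. Whether the replicate numbers mark pairs or batches cannot be told from these values. With the replicate block, TNFSF9 also passed between TNF plus Senexin B and Senexin B cells (-0.28, adjusted p = 0.0422), the other member calls stayed as they were, and 1470 genes were called for TNF against control. Members under 10 counts, TNF, LTB and TNFSF10, are limited by depth.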

Other observations

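Some genes followed the members across the 4 groups most closely, by the root mean square difference of group means of log2(CPM + 1) centred per gene, over 12415 genes. Nearest to CSF1 was PLAU, the urokinase, at 0.0818, then CCL20 at 0.150 and IRF1 at 0.179. CCL20, a chemokine, reached the minimum of 1 CPM only with TNF, at 5.57 CPM with TNF plus Senexin B and 5.36 CPM with TNF, against 0 with Senexin B and 0.0368 CPM in control cells, and unlike CSF1 its mean was not lower with TNF plus Senexin B than with TNF. PLAU averaged 261.0 CPM with TNF plus Senexin B, 318.8 CPM with TNF, 45.8 CPM with Senexin B and 47.4 CPM in control cells. Nearest to LIF were HELB (0.0304), FGD6 (0.0377) and PLK2 (0.059), with PLK2 at 323.8, 257.9, 181.7 and 150.4 CPM in the same order of groups. Among the genes nearest to IL32 were ZC3H12C (0.0355) and the gp130 gene IL6ST (0.0453). IL18 lay nearest to NRG1 (0.0083), MYO1E (0.0084) and CDCP1 (0.015), and TNFSF9 to PDE5A (0.006), CAPN5 (0.0065) and JAG2 (0.0075). The 1 CPM added before the logarithm narrows the changes of genes at low levels, CCL20 and IL32 among them. A small difference by this measure therefore does not mean similar fold changes. The changes of IL18 and TNFSF9 are small, and the likeness is a description over 4 group means.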
